A study of Mus musculus with 12 samples.

Results

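The 10 imprinted growth-control genes Cdkn1c, Igf2r, Mest, Sgce, Peg10, Plagl1, Grb10, H19, Igf2 and Peg3 were followed in 12 RNA-sequencing libraries of a mouse vascular tumor cell line, and all 10 have a row among the 14851 listed genes. They were picked from the RPKM values of these libraries, because Cdkn1c was lower while Mest and Sgce were higher in cells that lack an autophagy gene, so the differences between knockout (KO) and control cells are described here for these 10 genes without a test. RPKM is the number of reads of a gene divided by its length in kilobases and by the size of the library. The cells are 562 cells, a spontaneously immortalized line from tumors of Tsc1 f/f;Scl-Cre mice, in which tamoxifen had removed Tsc1 from endothelial cells, and the loss of Tsc1 is shared by all 4 groups. The labels give the strain C57BL/6, the tissue lymphatic endothelial cells and the genotype as wildtype (control) or as KO of Fip200, of Atg5 or of Atg7, with 3 libraries per group. Lentiviral CRISPR guides made the KO cells under puromycin selection, Atg5 and Atg7 with 1 guide each and Fip200 with 2. The labels do not say which guide or clone stands behind a Fip200 library or whether the control cells carried a guide. The study names a guide against EGFP as its control guide, but does not say whether the sequenced control cells carried it. All groups come from 1 line, and the study calls the 3 RNA samples of each KO independent replicates, and its reporting form names biological triplicates for experiments in general, but separate cultures are not named for the RNA samples, so the p-values measure the spread between these samples, which may be technical.

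Imprinted genes are expressed from 1 parental copy, because the other copy is silenced by DNA methylation and chromatin marks that are set in the germ line. Many of them act on growth before birth. Genes read from the mother's copy, such as Cdkn1c, Igf2r, H19 and in most tissues Grb10, tend to restrain growth, and genes read from the father's copy, such as Igf2, Mest, Peg10, Peg3, Plagl1 and Sgce, are often linked with growth promotion, although Plagl1 can also slow the cell cycle. The total RNA measured here does not tell the copies apart.

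Between 17266926 and 23629730 reads were counted per library. The endothelial genes Pecam1 (265 to 539 RPKM) and Cdh5 (116 to 805 RPKM) and the lymphatic genes Lyve1 (60.6 to 393 RPKM) and Pdpn (51.5 to 336 RPKM) were present in all 12 libraries, whereas Vwf of the endothelial list ranged from 0.0372 to 0.809 RPKM and the lymphatic regulator Prox1 from 0.0366 to 5.79 RPKM. A gene was called where the adjusted p was at most 0.1 and the log2 difference at least 1 up or down, the thresholds of the study. By this rule 1 of 11 tested endothelial genes was lower in Fip200 KO and in Atg7 KO (Flt1 in both), 3 of 11 were higher in Atg5 KO (Cdh5, Kdr, Esam), and of 6 lymphatic genes Lyve1 was higher in Atg5 KO and Atg7 KO. Of 5 listed leukocyte markers Ptprc lay between 0.0 and 0.129 RPKM, but Cd68, which is also found outside leukocytes, lay between 6.95 and 263 RPKM and was lower in Atg5 KO and Atg7 KO, and Lyz2 reached 26.4 RPKM in control 3. The summed level of 11 listed fibroblast and mural cell markers lay between 23.8 and 169 RPKM in control, between 23.8 and 293 for Fip200 KO, between 120 and 249 for Atg5 KO, and between 76.1 and 413 for Atg7 KO. In the controls Col1a1 and Col1a2 of this list stayed under 0.5 RPKM, whereas Col3a1 had 2.82, 143 and 23.1 RPKM and Thy1 17.7, 11.2 and 2.36. Of the tested fibroblast and mural markers 0 of 4 were called in Fip200 KO, 3 of 4 were higher in Atg5 KO (Acta2, Tagln, Thy1) and 3 of 5 in Atg7 KO (Col1a2, Tagln, Thy1), while over all tested genes 0.347%, 4.31% and 3.29% were called higher and 1.64%, 6.94% and 6.81% lower. The part of these cell type markers in the results on the imprinted genes was not tested.

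Transcripts of the targeted genes did not separate all groups, since Rb1cc1, the gene of FIP200, had 5.18, 6.84 and 2.06 RPKM in Fip200 KO against 6.43, 8.27 and 7.73 in control, and Atg5 had 8.53, 15.5 and 12.6 RPKM in Atg5 KO against 14.2, 11.1 and 10.6 in control. Atg7 was lower in Atg7 KO, at 5.4, 2.64 and 8.34 RPKM against 18.4, 25.0 and 19.8 (adjusted p = 0.0216). It was also below all controls in Atg5 KO, at 9.99, 11.9 and 9.94 RPKM (log2 difference -0.95, adjusted p = 0.0083), and Fip200 KO 3 with 8.23 RPKM lay below Atg7 KO 3. Guide-made insertions and deletions need not lower a transcript, so these levels check the labels only in part.

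The library names carry 3 prefixes, FY for control 1 and the Fip200 KO libraries, JG for controls 2 and 3 and Atg5 KO 1 and 2, and Yang for Atg5 KO 3 and the Atg7 KO libraries. What a prefix stands for is not stated, and no Atg7 KO library shares one with a control. Values within a prefix are given for the genes with the largest differences. Of the 10 genes, 6 had at least 0.5 RPKM in at least 3 libraries and so passed the filter for the fits against Fip200 KO and Atg5 KO, and 5 passed it for Atg7 KO, where Peg10 dropped out. H19, Igf2, Peg3 and Grb10 did not pass it in any comparison. Mest, Sgce and Peg10 passed through the libraries in which they were high.

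**Figure D1:**
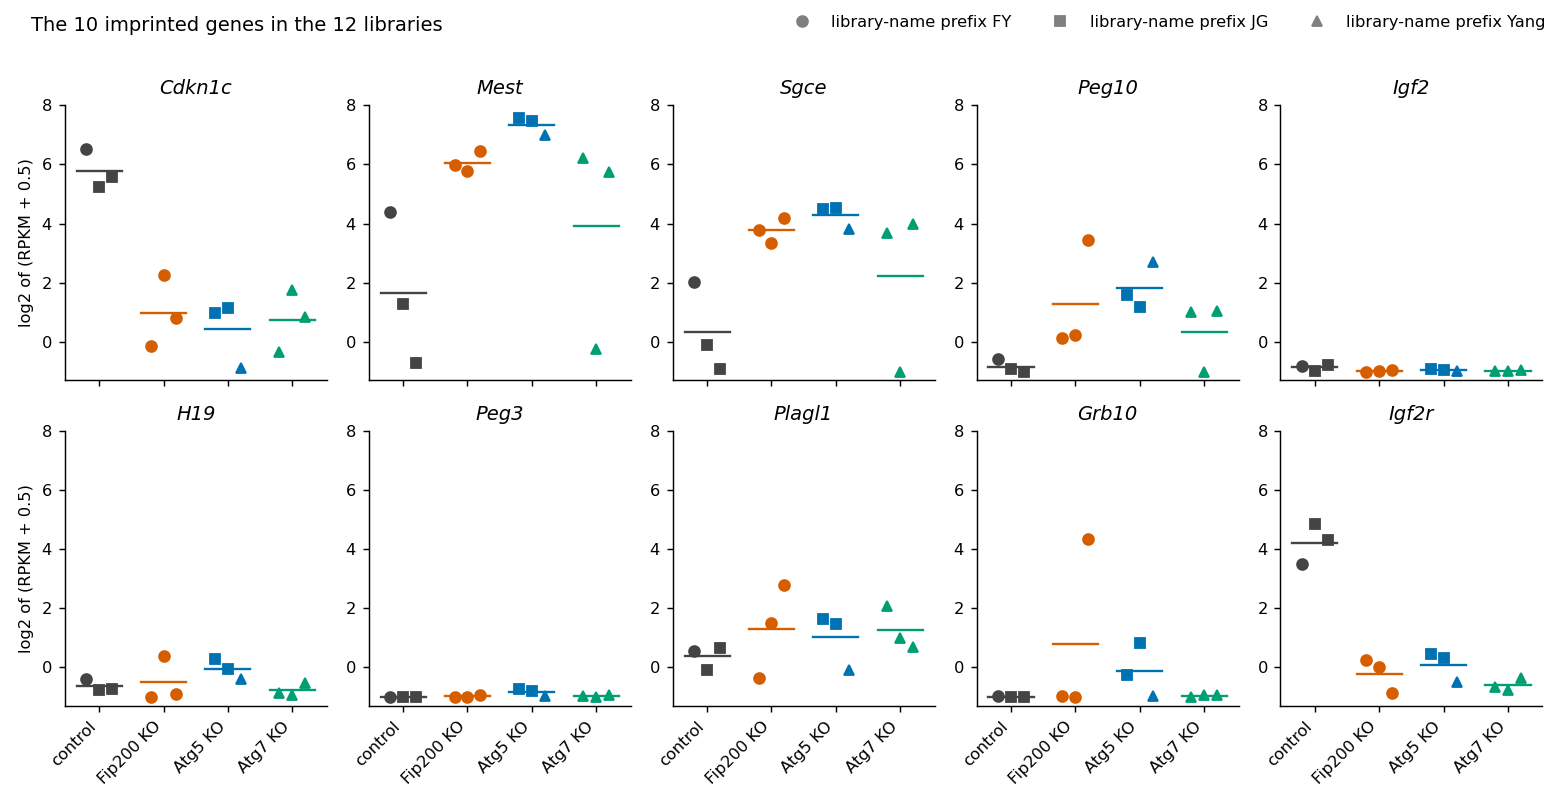
Level of each of the 10 imprinted genes as log2 of RPKM plus 0.5 (vertical axis) in the 3 libraries of each group (points), with the group mean as a line and the prefix of the library name as the shape of the point. Cdkn1c and Igf2r lay lower in all 9 KO libraries than in any control, Mest and Sgce lay higher in 8 of the 9, and Grb10 was high in 1 Fip200 KO library.

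Cdkn1c and Igf2r, both expressed from the maternal copy, were lower in all 9 KO libraries than in any of the 3 controls. Cdkn1c encodes p57KIP2, which inhibits cyclin-dependent kinases and holds cells in G1. It had 92.3, 37.5 and 47.7 RPKM in control, which is more than 91.5% of the listed genes by mean. The Fip200 KO libraries had 0.411, 4.29 and 1.24 RPKM, those of Atg5 KO 1.48, 1.72 and 0.0491 RPKM, and those of Atg7 KO 0.287, 2.85 and 1.3 RPKM. The mean of 59.2 ± 29.1 RPKM in control (SD, n = 3) was 29.9 times that of Fip200 KO, 54.6 times that of Atg5 KO and 40.0 times that of Atg7 KO. The control libraries held 4948, 2507 and 2665 reads of the gene, while the KO libraries held between 3 and 244, so that the KO levels rest on few reads. The lowest control library stood 8.75 times above the highest KO library, which was Fip200 KO 2. A lower level in bulk RNA can come from fewer cells with the transcript or from less RNA per cell, and the 2 cannot be told apart here.

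Igf2r is the receptor that carries mannose-6-phosphate tagged enzymes to lysosomes and takes up IGF2 for degradation. Its levels were 10.7, 28.3 and 19.2 RPKM in control, 0.695, 0.501 and 0.0459 for Fip200 KO, 0.882, 0.739 and 0.218 for Atg5 KO and 0.13, 0.086 and 0.285 for Atg7 KO. The groups did not overlap, and the lowest control library was 12.2 times the highest KO library. The control mean of 19.4 ± 8.8 RPKM (SD, n = 3) was 47.0 times the Fip200 KO mean, 31.7 times the Atg5 KO mean and 116 times the Atg7 KO mean. Among 12233 genes with sufficient level over the 12 libraries, the gap between the lowest control and the highest KO library ranked Igf2r at 9 and Cdkn1c at 13. All controls lay above all KO libraries for 890 genes. The ranks are a description, since the genes were picked from these values. Over the 12 libraries the log2 levels of Cdkn1c and Igf2r had a Pearson r of 0.90, given as a description, since the points share their groups.

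On the log2 scale of RPKM plus 0.5, the fitted difference between KO and control for Cdkn1c was -4.82 (SE 0.618) for Fip200, -5.37 (SE 0.583) for Atg5 and -5.04 (SE 0.553) for Atg7. For Igf2r it was -4.42 (SE 0.441), -4.12 (SE 0.394) and -4.81 (SE 0.351) in the same order. The offset of 0.5 makes these values smaller than the log2 of the ratio of RPKM where the KO level is near 0. Of all tested genes, 12.4% had all 3 KO libraries below all controls for Fip200 KO, 22.0% for Atg5 KO and 20.4% for Atg7 KO. The genes were chosen on these contrasts, so nothing is read from this. Within the prefix FY, Cdkn1c was at 92.3 RPKM in control 1 and at a mean of 1.98 in Fip200 KO, and within JG at a mean of 42.6 in the 2 controls and 1.6 in the 2 Atg5 KO libraries. For Igf2r the same means were 10.7 against 0.414 and 23.8 against 0.811 RPKM. With the prefix as a term in a fit of all 12 libraries the Atg7 KO difference of Cdkn1c was -2.74, against -5.04 without it.

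**Figure D2:**
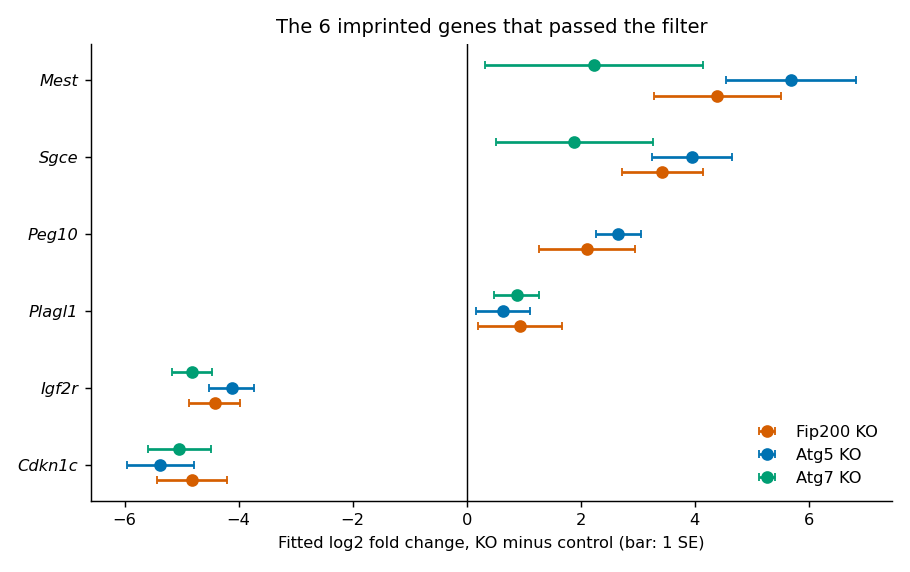
Fitted log2 fold change of KO against control, on log2 of RPKM plus 0.5 (horizontal axis, bars of 1 SE, 3 libraries per group), for the 6 imprinted genes that passed the filter, coloured by KO. Cdkn1c and Igf2r lay between -5.37 and -4.12 in all 3 KO, whereas the bars of Mest and Sgce in Atg7 KO are the widest.

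The start of Igf2r lies in a window dense in CpG, the dinucleotide whose methylation marks silenced copies, and it is shown because Igf2r had the widest gap between control and KO libraries of the 10 genes. RefSeq windows of 300 bases around annotated starts (250 before, 50 after) were at hand for 6 of the 10 genes, Mest, Peg3, Igf2, Plagl1, Grb10 and Igf2r, on build GRCm38.p6. The Igf2r window, chr17:12769657-12769956 on the minus strand, holds 34 CpG, a count reached by 7.73% of the 32851 windows, whose median was 7. CpG are in capitals in the sequence, written 5′ to 3′ on the strand of the gene.
Igf2r: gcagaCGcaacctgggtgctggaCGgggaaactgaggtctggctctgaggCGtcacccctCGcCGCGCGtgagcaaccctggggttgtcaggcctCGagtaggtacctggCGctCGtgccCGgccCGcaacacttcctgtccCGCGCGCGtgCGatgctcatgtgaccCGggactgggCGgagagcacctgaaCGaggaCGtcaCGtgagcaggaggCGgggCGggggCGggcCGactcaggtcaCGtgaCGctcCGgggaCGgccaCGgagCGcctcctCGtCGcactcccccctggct

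Airn, the antisense RNA of the Igf2r locus on chromosome 17, had 0.337, 1.01 and 0.139 RPKM in control and at most 1.04 RPKM in a KO library, and did not pass the filter. The libraries were directional, but whether reads were counted by strand is not stated, so reads of Igf2r and Airn where they overlap may not be separated. Of the 10 listed neighbours of Igf2r, 5 passed the filter. Their log2 differences lay between -0.55 (D17Ertd648e, Atg7 KO) and 0.92 (Mrpl18, Atg5 KO), and none was called.

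Mest and Sgce, both expressed from the paternal copy, moved the other way but switched by library. Mest encodes a protein of the endoplasmic reticulum with an alpha/beta hydrolase fold. It had 20.5, 1.95 and 0.116 RPKM in control, with 1191, 141 and 7 reads. The Fip200 KO libraries had 62.3, 54.2 and 86.7 RPKM, those of Atg5 KO 189, 178 and 127 RPKM, and those of Atg7 KO 74.6, 0.34 and 52.7 RPKM. All Fip200 KO and Atg5 KO libraries were above all controls, as were Atg7 KO 1 and 3, but Atg7 KO 2 with 19 reads lay below control 1 and control 2. The lowest of the other 8 KO libraries stood 2.57 times above control 1, the highest control. The highest library, Atg5 KO 1, had 1630 times the level of the lowest, control 3.

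Sgce encodes epsilon-sarcoglycan, a membrane protein of the dystrophin-associated complex. Its levels were 3.62, 0.421 and 0.0265 RPKM in control, 13.2, 9.7 and 17.6 for Fip200 KO, 22.1, 22.7 and 13.6 for Atg5 KO and 12.4, 0.0 and 15.4 for Atg7 KO. No read of Sgce was counted in Atg7 KO 2 and 1 read in control 3. A count of 0 allows up to 3 reads by counting error alone, so both libraries stand at the limit of detection. The gene lies 84 listed genes away from Mest on chromosome 6, yet the levels followed each other, with a Pearson r of 0.99 of the log2 values over 12 libraries that share groups and depth. In the 10 libraries with more than 3 reads of Sgce, the RPKM of Mest was between 3.43 and 9.35 times that of Sgce.

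The order of the groups by mean RPKM was the same for both genes, Atg5 KO highest, then Fip200 KO, Atg7 KO and control. For Mest the means were 165 ± 32.8, 67.7 ± 17.0, 42.6 ± 38.2 and 7.53 ± 11.3 RPKM (SD, n = 3 each), and for Sgce they were 19.5 ± 5.06, 13.5 ± 3.97, 9.27 ± 8.16 and 1.35 ± 1.97 RPKM. The Atg5 KO and Fip200 KO libraries did not overlap for Mest but did for Sgce, and Atg7 KO overlaps control for both genes through its second library. Control 1 held 90.9% of the summed control RPKM of Mest and 89.0% of that of Sgce. The fitted log2 difference from control for Mest was 4.4 (SE 1.12) with the loss of Fip200, 5.69 (SE 1.14) with that of Atg5 and 2.24 (SE 1.91) with that of Atg7, and for Sgce 3.43 (SE 0.712), 3.95 (SE 0.707) and 1.89 (SE 1.38). Leaving out 1 library moved the Atg7 KO difference of Mest between 1.06 (without control 3) and 4.32 (without Atg7 KO 2), and that of Sgce, where it still passed the filter, between 1.27 and 3.51 (without the same libraries). The Fip200 KO difference of Mest moved between 3.22 (without control 3) and 5.77 (without control 1).

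Within the prefix FY, where the control is control 1, the difference was smaller than within JG. Mest was at 20.5 RPKM in control 1 and a mean of 67.7 in Fip200 KO, a log2 difference of 1.67, but at a mean of 1.03 in controls 2 and 3 and 184 in Atg5 KO 1 and 2, a log2 difference of 7.23. For Sgce the same differences were 1.73 and 5.04. Within Yang, Mest had 127 RPKM in Atg5 KO 3 and a mean of 42.6 in Atg7 KO. Of all tested genes, 11.7%, 28.4% and 19.2% had all KO libraries above all controls for Fip200, Atg5 and Atg7 KO, from which nothing is read about genes chosen on this contrast.

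Of the Mest windows that RefSeq gives, the one at chr6:30737800-30738099 on the plus strand is shown, since the level of Mest differed widely between libraries of 1 group. It holds 17 CpG (in capitals), reached by 31.4% of windows, and 2 matches to TGCCGC, the letters that the imprint-keeping protein ZFP57 binds when methylated, searched on both strands without overlaps of its own. That hexamer stands in 11.6% of all windows. It also has 1 match each in a window of Igf2, Plagl1 and Grb10, and 0 in the windows of Igf2r and Peg3. A match of letters is a description and not a site. Zfp57 itself was at 10.9 to 22.0 RPKM in the 12 libraries. An upstream Mest window at chr6:30733256-30733555 holds 8 CpG and 0 copies of the hexamer. Sequence is given 5′ to 3′.
Mest: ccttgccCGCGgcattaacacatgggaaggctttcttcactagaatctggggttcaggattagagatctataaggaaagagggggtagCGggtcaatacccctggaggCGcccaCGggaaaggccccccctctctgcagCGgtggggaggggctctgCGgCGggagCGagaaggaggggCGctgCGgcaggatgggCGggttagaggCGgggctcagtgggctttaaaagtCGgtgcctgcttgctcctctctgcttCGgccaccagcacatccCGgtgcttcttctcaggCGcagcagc

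Peg10 shares a promoter region with Sgce, from which it is read in the opposite direction, and derives from a retrotransposon. It had 0.166, 0.0254 and 0.0 RPKM in control, 0.59, 0.686 and 10.3 for Fip200 KO, 2.51, 1.76 and 5.97 for Atg5 KO and 1.5, 0.0 and 1.55 for Atg7 KO. The control libraries held 21, 4 and 0 reads and Atg7 KO 2 held 0, and Sgce held 1 and 0 reads in the 2 libraries without Peg10. All Fip200 KO and Atg5 KO libraries were above all controls. Fip200 KO 3 alone carried 89.0% of the summed Fip200 KO level. In the 10 libraries with more than 3 reads of Sgce, the RPKM of Peg10 was between 0.0449 and 0.587 times that of Sgce, a wider range than between Mest and Sgce, and its r with Sgce was 0.78. The fitted log2 difference was 2.11 (SE 0.842) in Fip200 KO and 2.66 (SE 0.391) in Atg5 KO. With the controls near 0, these values depend on the offset, and with an offset of 0.1 they were 3.58 and 4.37.

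**Figure D3:**
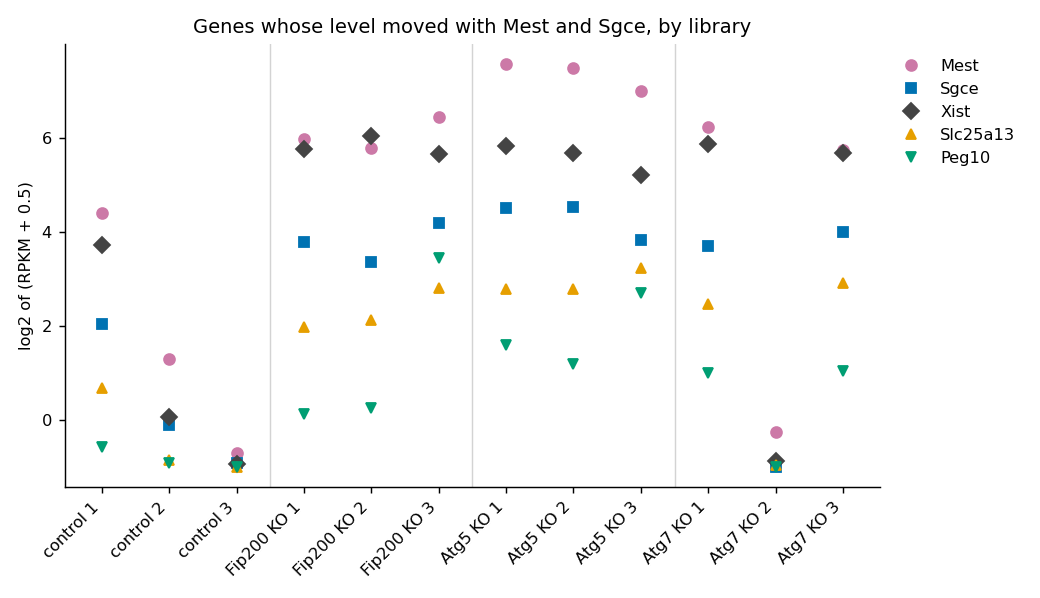
Log2 of RPKM plus 0.5 (vertical axis) of Mest, Sgce and Peg10 and of Xist and Slc25a13, the genes most like Mest and Sgce, in each of the 12 libraries (horizontal axis, groups parted by grey lines). All 5 genes have their 3 lowest values in control 2, control 3 and Atg7 KO 2, and control 1 lies below the other 8 KO libraries.

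The genes most like Mest and Sgce over the 12 libraries were each other, then Xist (r = 0.97 with Mest and 0.981 with Sgce) and Slc25a13 (r = 0.963 and 0.977). Xist, the RNA that coats the inactive X chromosome, had 12.7, 0.538 and 0.0178 RPKM in control, 53.4, 65.4 and 49.7 for Fip200 KO, 56.1, 50.9 and 36.2 for Atg5 KO and 58.1, 0.0468 and 50.5 for Atg7 KO. It was thus low in the same 3 libraries as Mest and Sgce and between in control 1. Slc25a13, a mitochondrial aspartate and glutamate carrier, lies 8 listed genes from Sgce on chromosome 6 and had 1.09, 0.0528 and 0.0 RPKM in control, 5.02, 0.0171 and 7.06 in Atg7 KO, and 3.43 to 8.81 RPKM in the other KO libraries. These genes were chosen for this likeness, and their levels are a description.

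For Cdkn1c the most alike genes were Pltp (r = 0.962), a phospholipid transfer protein, Vps37a (r = 0.957), a subunit of the ESCRT-I complex, and Mme (r = 0.956), the cell surface peptidase neprilysin. Mme had 18.8, 13.8 and 17.0 RPKM in control and at most 0.429 RPKM in a KO library, and Pltp had 17.1, 6.07 and 19.1 RPKM in control and at most 1.54 in a KO library. Vps37a changed over a smaller range, from 22.3 to 23.3 RPKM in control and from 6.31 to 13.1 RPKM in the KO libraries. None of these 3 genes showed the low value of Atg7 KO 2 that marked Mest, and in that library Cdkn1c was at 2.85 RPKM, within the range of the other KO libraries.

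Plagl1 and Grb10 differed widely between libraries of 1 group. Plagl1, a zinc finger transcription factor, had 0.982, 0.434 and 1.09 RPKM in control, 0.278, 2.34 and 6.39 for Fip200 KO, 2.61, 2.3 and 0.448 for Atg5 KO and 3.68, 1.51 and 1.13 for Atg7 KO. The Fip200 KO and Atg5 KO libraries overlapped the controls, while those of Atg7 KO lay just above them, and the fitted log2 differences of 0.93 (SE 0.736), 0.64 (SE 0.479) and 0.88 (SE 0.398) did not reach 1. Leaving out 1 library moved these values from 0.19 (without Fip200 KO 3) to 1.77 (without Fip200 KO 1), from 0.33 to 1.18 (without Atg5 KO 1 and 3) and from 0.48 to 1.16 (without Atg7 KO 1 and 3), and with the prefix as a term the Atg7 KO difference of Plagl1 was 2.61. Grb10, an adaptor that dampens signalling from the insulin and IGF1 receptors, had 1, 0 and 0 reads in control and 2265 reads, or 20.0 RPKM, in Fip200 KO 3, at least 709-fold above the floor of 3 reads per control library. The other Fip200 KO libraries held 1 and 0 reads. Atg5 KO 1 and 2 held 34 and 137 reads and Atg5 KO 3 held 1, and Atg7 KO held 0, 2 and 3. Cobl, the listed gene next to Grb10 and a regulator of actin, was also highest in Fip200 KO 3, at 5.08 RPKM against 0.247 and 0.208 in the other Fip200 KO libraries and 0.118 to 0.442 in control, but reached 2.07 and 4.51 RPKM in Atg7 KO 1 and 2, where Grb10 held 0 and 2 reads.

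The fetal growth factor gene Igf2, the long noncoding RNA H19 beside it and Peg3, a zinc finger gene, were at or near the limit of detection. Igf2 held 8, 1 and 9 reads in control and between 0 and 3 in the KO libraries. H19 held 12, 5 and 5 reads in control, 34, 23 and 14 in Atg5 KO, 0, 39 and 2 in Fip200 KO, and 2, 1 and 10 in Atg7 KO. Peg3 held no read in any control, 14, 10 and 1 in Atg5 KO, at most 4 in a Fip200 KO or Atg7 KO library. For H19 and Peg3 the Atg5 KO libraries lay above the controls by value. Atg5 KO 3 did so only within counting error, with 1 read of Peg3 against 0 and 14 of H19 against 12 in control 1. With at most 39 reads in any library, the levels of these 3 genes rest on few reads.

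Differences between the KO cells were tested, since the genes were not chosen on them. In the fit of all 12 libraries none of 18 tests of the 6 genes was called, and the smallest adjusted p was 0.789. That fit uses 1 spread for all groups. For Mest the SD of the log2 level was 0.346 in Fip200 KO and 0.305 in Atg5 KO, but 2.57 in control and 3.61 in Atg7 KO. The Mest difference of Atg5 KO from Fip200 KO, 1.28 (95% interval -2.08 to 4.65), is therefore not settled by the test. The libraries of these 2 KO did not overlap for Mest. Of all 12233 tested genes 0.0% passed when Atg5 KO was set against Fip200 KO, 0.0% for Atg7 KO against Fip200 KO and 0.0% for Atg7 KO against Atg5 KO, with 927, 916 and 562 genes at an unadjusted p under 0.05 by limma. The first 2 counts rest on Fip200 KO 3, since without it 300 and 402 genes passed, though none of the 6. Of the 18 tests, 1 had an unadjusted p under 0.05, Mest in Atg7 KO against Atg5 KO, with a log2 difference of -3.44 (95% interval -6.81 to -0.08, adjusted p = 1.0 by limma). Without Atg7 KO 2 that difference was -1.37. For Cdkn1c the differences between KO were -0.55 (-2.14 to 1.04), -0.23 (-1.82 to 1.36) and 0.32 (-1.26 to 1.91), and for Igf2r 0.30 (-0.57 to 1.18), -0.39 (-1.27 to 0.48) and -0.69 (-1.57 to 0.18), in the order Atg5 against Fip200, Atg7 against Fip200 and Atg7 against Atg5. These intervals leave room for differences of severalfold between the KO cells. Fip200 KO shares no prefix with Atg5 KO or Atg7 KO, so prefix and KO are not separated in its comparisons with them. With the prefix as a term, Cdkn1c in Atg7 KO against Fip200 KO was at 2.82, outside the interval above. Mest against Fip200 KO was then at 5.56 in Atg5 KO (1.28 without the term) and at 2.46 in Atg7 KO (-2.16 without it). Igf2r in Atg5 KO against Fip200 KO was at -0.49, within its interval.

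**Figure D4:**
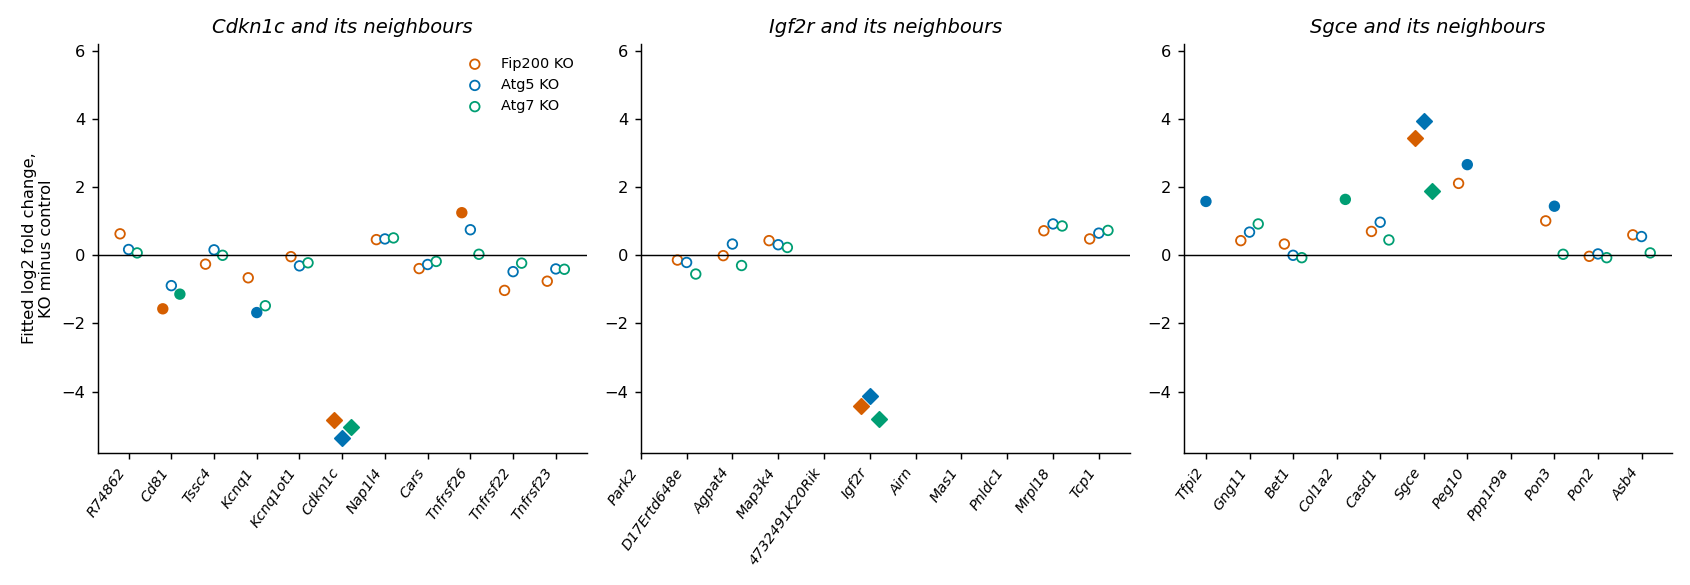
Fitted log2 fold change of KO against control (vertical axis) for Cdkn1c, Igf2r and Sgce (diamonds) and the 5 listed genes on each side in chromosome order (circles), coloured by KO, with circles filled where both thresholds were passed. Genes without a point did not pass the filter on low values. Neighbours of Cdkn1c and Igf2r stayed within -1.68 and 1.25, against -5.37 to -4.12 for Cdkn1c and Igf2r themselves.

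Neighbouring genes were compared to see how far the differences reached along the chromosomes. The 10 genes have 76 distinct listed neighbours, of which 17 also belong to the list of other imprinted genes. Calls over the whole table made up 1.64% (lower) and 0.347% (higher) for Fip200 KO, 6.94% and 4.31% for Atg5 KO and 6.81% and 3.29% for Atg7 KO, and the counts of this list and of those that follow stand against these shares. In Fip200 KO 1 of 54 tested neighbours was called lower (Cd81) and 1 higher (Tnfrsf26), in Atg5 KO 1 of 55 lower (Kcnq1) and 3 higher (Tfpi2 and Pon3 among them), and in Atg7 KO 3 of 55 lower (Mkln1os, Cd81, Egfr) and 3 higher (Cobl, Col1a2, Phactr2). Tnfrsf26, Mkln1os, Egfr and Phactr2 fall outside the rule for named genes and are named because the counts are small. The median log2 difference of the tested neighbours was 0.13, 0.11 and 0.03, against 0.02, 0.06 and -0.01 over all tested genes. Without control 2 or control 3 no gene of the whole table was called in Fip200 KO, and the Atg7 KO count of neighbours was 2 without either of these controls or without Atg7 KO 1.

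Around Cdkn1c on chromosome 7, the nearest gene on each side differed by less than 1 on the log2 scale. Kcnq1ot1, the noncoding RNA that silences this domain on the paternal copy, gave -0.04, -0.31 and -0.22 in Fip200, Atg5 and Atg7 KO, and Nap1l4, a histone chaperone, gave 0.46, 0.48 and 0.51. Kcnq1, a potassium channel gene that overlaps Kcnq1ot1, fell in Atg5 KO (log2 difference -1.68, SE 0.511, adjusted p = 0.0481), from 7.35, 2.43 and 2.11 RPKM in control to 1.18, 1.04 and 0.199. Without Atg5 KO 3 its adjusted p was 0.113, and with the prefix as a term its difference was -0.78. Reads of Kcnq1 and Kcnq1ot1 where they overlap may not be separated, as for Igf2r and Airn. Next to Mest, Copg2 gave -0.08, -0.36 and -0.57 and Cep41 gave 0.44, 0.11 and -0.14, and next to Sgce, Casd1 gave 0.70, 0.97 and 0.45, none of them called.

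Tfpi2 and Col1a2 lie within 5 listed genes of Sgce. Tfpi2, a protease inhibitor, had no read in any control and 37, 46 and 17 reads in Atg5 KO, or 1.22, 1.42 and 0.501 RPKM, and was called higher there (adjusted p = 0.0103). It passed the filter through the Atg5 KO libraries alone, and its adjusted p with no filter was 0.0116. Col1a2, a chain of type I collagen, rose in Atg7 KO from 0.0202, 0.0162 and 0.00969 RPKM to 1.11, 0.756 and 1.54 (adjusted p = 0.0134). Col1a2 and Cobl passed the filter through the Atg7 KO libraries alone, and with no filter their adjusted p was 0.0155 and 0.0622. Col1a2 is also on the list of fibroblast markers, whose part in the result was not tested, and with the prefix as a term its difference was 0.53 against 1.64. Cobl rose in Atg7 KO by 1.86 (SE 0.474, adjusted p = 0.0452), a call lost without control 2 or control 3 (adjusted p = 0.129 and 0.148).

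Other imprinted genes were counted from a list of 62, of which 43 have a row. In Fip200 KO 1 of 30 tested was called lower and 0 higher, with 1904 genes of the table at an unadjusted p under 0.05 by limma. In Atg5 KO 1 of 32 was lower and 5 were higher, and in Atg7 KO 1 of 30 was lower and 4 were higher. Their median log2 differences were -0.06, 0.23 and 0.03, beside 0.02, 0.06 and -0.01 over all genes. Over all genes the shares called lower and higher were 1.64% and 0.347%, 6.94% and 4.31%, and 6.81% and 3.29%, and the list was not tested against them.

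The genes of this list called higher were Ndn, Nnat, Slc38a4, Pon3 and Tfpi2 in Atg5 KO and Ndn, Nnat, Slc38a4 and Peg12 in Atg7 KO. Ndn, or necdin, a growth suppressor of the MAGE family, had 14.3, 0.666 and 1.32 RPKM in control and rose to 25.6, 23.3 and 30.1 in Atg5 KO (log2 difference 3.08, SE 0.871, adjusted p = 0.0387) and to 19.2, 43.9 and 29.6 in Atg7 KO (3.24, SE 0.89, adjusted p = 0.0545). Like Mest it was higher in control 1 than in the other controls, but unlike Mest it was high in Atg7 KO 2. Without control 3 its adjusted p was 0.117 in Atg5 KO, and in Atg7 KO it was 0.116 to 0.17 without control 2, control 3, Atg7 KO 1 or Atg7 KO 3. Nnat, a small membrane protein of the endoplasmic reticulum, rose from 1.83, 1.59 and 1.37 RPKM to 7.63, 9.72 and 2.83 in Atg5 KO (adjusted p = 0.0257) and to 3.62, 2.55 and 5.82 in Atg7 KO (adjusted p = 0.0564). Peg12 rose in Atg7 KO from 1.12, 0.128 and 1.07 RPKM to 3.36, 5.79 and 2.71 (log2 difference 1.87, SE 0.435, adjusted p = 0.0351), a call that stood without any 1 library.

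Slc38a4, an amino acid transporter, rose from 12.4, 8.32 and 7.43 RPKM to 19.9, 19.5 and 18.6 in Atg5 KO (log2 difference 1.03, SE 0.192, adjusted p = 0.0118) and to 41.0, 13.7 and 26.1 in Atg7 KO (1.37, SE 0.393, adjusted p = 0.0595). The Atg5 KO value dropped under the threshold of 1 without control 2 or control 3 (0.97 and 0.89), and under median-of-ratios scaling (0.98). In Atg7 KO, Slc38a4 and Nnat were not called without control 2, control 3, Atg7 KO 1 or Atg7 KO 3, with adjusted p from 0.134 to 0.179 and from 0.123 to 0.175. Pon3, a lactonase of the paraoxonase family beside Sgce and Peg10, rose in Atg5 KO from 9.67, 9.34 and 8.96 RPKM to 22.8, 21.3 and 36.6 (log2 difference 1.44, SE 0.209, adjusted p = 0.00644). In Atg7 KO it had 26.8, 1.26 and 20.4 RPKM, low in the same library as Mest and Sgce.

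Cd81, a tetraspanin gene between Igf2 and Cdkn1c, had the highest level among the called genes of the list of other imprinted genes. It had 234, 198 and 218 RPKM in control, 65.2, 75.9 and 76.3 for Fip200 KO, 124, 137 and 92.7 for Atg5 KO and 80.1, 125 and 94.1 for Atg7 KO. It fell by 1.57 in Fip200 KO (SE 0.178, adjusted p = 0.0266) and dropped by 1.14 in Atg7 KO (SE 0.193, adjusted p = 0.0179), while in Atg5 KO the difference of -0.89 (SE 0.163, adjusted p = 0.0113) was under the threshold of size. Without control 2 or control 3 its adjusted p in Fip200 KO was 0.167 and 0.265, and without Atg7 KO 1 its Atg7 KO value was -0.99.

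Of 14 tested genes that write, keep or erase imprints, 0 were called in Fip200 KO and 1 each in Atg5 KO and Atg7 KO. Uhrf1, which brings the maintenance methyltransferase to newly copied DNA, rose in Atg5 KO from 12.4, 16.8 and 15.7 RPKM to 34.4, 35.4 and 32.6 (log2 difference 1.17, SE 0.136, adjusted p = 0.0042), without overlap. In Fip200 KO it had 27.3, 20.2 and 34.6 RPKM and in Atg7 KO 38.6, 19.8 and 30.4, above all controls but not past the thresholds. Tet2, which oxidises methylated cytosine, fell in Atg7 KO from 9.11, 9.63 and 8.52 RPKM to 3.79, 3.56 and 5.31 (log2 difference -1.04, SE 0.196, adjusted p = 0.0219). Without control 2, Atg7 KO 1 or Atg7 KO 2 the call ended, since the difference no longer reached 1 in size (rounded, -1.0, -0.98 and -0.94). Tet2 also lay below all controls in Atg5 KO, at 4.11, 4.85 and 5.04 RPKM. The difference there (-0.9, adjusted p = 0.00695) was under the threshold of size. In Fip200 KO, Tet2 overlapped the controls.

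In the insulin-like growth factor pathway, of which Igf2, Igf2r and Grb10 are part, 1 of 11 tested genes was called lower and 1 higher in Fip200 KO, 3 of 13 lower and 1 higher in Atg5 KO, and 3 of 12 lower and 1 higher in Atg7 KO. Over all tested genes the shares called lower and higher were 1.64% and 0.347%, 6.94% and 4.31%, and 6.81% and 3.29%. Igf1, the ligand that acts through the IGF1 receptor, rose in all 3, from 0.57, 0.0668 and 0.154 RPKM in control to 2.09, 2.35 and 4.65 in Fip200 KO (adjusted p = 0.0671), 4.11, 3.67 and 6.95 in Atg5 KO (adjusted p = 0.00419) and 2.74, 2.54 and 2.41 in Atg7 KO (adjusted p = 0.0109). Igf2bp1, an RNA-binding protein that binds Igf2 and other transcripts, gave -2.17, -1.45 and -1.69 in the 3 KO and fell in each (adjusted p = 0.0363, 0.0198 and 0.0294). Igf2bp3, of the same family, gave -1.34 in Atg5 KO and -1.64 in Atg7 KO, lower in both (adjusted p = 0.0738 and 0.0627). In Fip200 KO, Igf2bp3 gave -1.86 and also lay below all controls, but was not called (adjusted p = 0.15). Igfbp5, which binds IGFs outside the cell, fell from 261, 274 and 236 RPKM to 12.3, 22.3 and 6.85 in Atg5 KO (adjusted p = 0.00305) and 0.158, 9.04 and 12.3 in Atg7 KO (adjusted p = 0.0187), whereas the Fip200 KO libraries spread from 369 over 56.7 to 2.55. In Fip200 KO, Igf2bp1 passed the filter through the controls alone (adjusted p = 0.0354 with no filter), so it was not tested there when a control was left out. The Fip200 KO calls of Igf1 and Igf2bp1 were lost without Fip200 KO 2 (adjusted p = 0.154 and 0.111), that of Igf1 also without control 2 or control 3 (0.309 and 0.455), and Igf2bp1 in Atg7 KO without control 3 (0.117). Igf2bp3 lost its calls without control 2, control 3 or most of the KO libraries, 3 in Atg5 KO and 2 in Atg7 KO, with adjusted p from 0.13 to 0.193.

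Cdkn1c belongs to the Cip/Kip inhibitors, and the list of its relatives and partners had 0 of 15 tested genes called in Fip200 KO, 1 of 16 lower and 1 higher in Atg5 KO, and 1 of 16 lower and 2 higher in Atg7 KO. Its relative Cdkn1a, or p21, had 69.2, 53.9 and 92.4 RPKM in control, 30.4, 47.3 and 11.0 in Atg5 KO (log2 difference -1.46, SE 0.501, adjusted p = 0.0667) and 12, 17.5 and 32.4 in Atg7 KO (-1.86, SE 0.368, adjusted p = 0.0243), and 6.02, 59.1 and 14.0 in Fip200 KO, where it was not called. Ccne2, an E-type cyclin, rose by 1.23 in Atg5 KO and 1.20 in Atg7 KO (adjusted p = 0.00844 and 0.0232). Ccnd1, or cyclin D1, rose in Atg7 KO from 71.1, 38.8 and 46.6 to 215, 156 and 227 RPKM (adjusted p = 0.0104). The Fip200 KO libraries (1.48, adjusted p = 0.11) and Atg5 KO libraries (0.99, adjusted p = 0.0474) also lay above all controls for Ccnd1, but were not past both thresholds. The calls of Ccne2 and Ccnd1 stood without any 1 library. That of Cdkn1a in Atg5 KO was lost without control 1, control 3, Atg5 KO 1 or Atg5 KO 3, with differences from -1.59 to -0.88. It was also lost with 12 libraries in 1 fit (adjusted p = 0.207) and with a replicate block (0.106). The Atg7 KO call of Cdkn1a was lost without control 3 (adjusted p = 0.101) and with 12 libraries in 1 fit (0.116). With the prefix as a term the Atg7 KO difference of Cdkn1a was -0.13.

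Of the dystrophin and sarcoglycan genes, the partners of Sgce, 0 of 5 tested were called in Fip200 KO, while 1 of 6 was called lower and 1 higher in both Atg5 KO and Atg7 KO. Sgcb, beta-sarcoglycan, rose by 1.14 and 1.31 (adjusted p = 0.0128 and 0.0554), from 0.226, 0.443 and 0.367 RPKM to 1.63, 1.54 and 0.98 with Atg5 KO and 2.87, 0.794 and 1.55 with Atg7 KO. Sgcb passed the filter through the KO libraries alone, and with no filter its adjusted p was 0.013 and 0.0679. Unlike Sgce, Sgcb was above all controls in Atg7 KO 2. In Atg7 KO the call of Sgcb was lost without any 1 of the 3 controls (adjusted p from 0.12 to 0.154).

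When the 12 libraries were fitted with a term for the prefix, 1 of the 3 Fip200 KO calls among the named genes of these lists stayed (Cd81), 7 of the 15 Atg5 KO calls (among them Igf1, Igf2bp1, Igf2bp3, Ndn, Nnat and Tfpi2), and 1 of the 17 Atg7 KO calls (Ndn). Of the lost calls, 2 of 2, 6 of 8 and 13 of 16 kept their direction and a log2 difference of at least 1, such as Peg12 in Atg7 KO (3.53 against 1.87) and Uhrf1 in Atg5 KO (1.08 against 1.17). The others were Cdkn1a (-0.89) and Kcnq1 (-0.78) in Atg5 KO and Cdkn1a (-0.13), Cd81 (-0.59) and Col1a2 (0.53) in Atg7 KO. Without that term the 12 libraries in 1 fit kept 3, 12 and 14 of the calls. In the fit with the prefix, Atg7 KO is tied to control through Atg5 KO 3 alone, so that prefix and KO can hardly be told apart there.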

How the data were processed

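RNA of 562 cells was sequenced in 3 libraries each of control cells and of cells with KO of Fip200, Atg5 or Atg7. The authors aligned reads with TopHat2, used Bioconductor to count them per transcript, and compared groups with edgeR. Versions, genome build and annotation are not given in the sources used here. They deposited 1 table per KO against control, with the same 3 controls in each. The authors deposited RPKM values per library, a unit named in no header and read from the values. Group means, on a signal scale of reads divided by size factors, their ratio (fold change), the log2 of it, and raw and adjusted p-values were also deposited by the authors. These comparison columns were not used. Whole reads behind the RPKM were recovered for 14851 of 14851 genes (within 0.0001 of a whole number, 20 genes with no read, 19 scaled by a common factor taken from the deposited means), and means of the scaled reads equalled the deposited means within 0.1% for 100.0% of genes.

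The 10 genes, the lists and the tests were chosen with earlier results of these data known. Genes with at least 0.5 RPKM in at least 3 compared libraries were fitted with limma (lmFit, eBayes with trend) on log2 of RPKM plus 0.5, each KO against control in 6 libraries and KO against KO in all 12. P-values were adjusted over all tested genes by Benjamini and Hochberg, and calls needed 0.1 or less for the adjusted p and a log2 difference of 1 or more, up or down. The tests were made on the deposited RPKM scale, and no count model was run on the recovered reads. Named genes were the 10, the called genes of the imprinted list, up to 4 each of the neighbours and 4 further lists by size of the difference, the 3 genes most correlated with Cdkn1c, Mest and Sgce, and the targeted genes. Neighbours are the 5 listed genes on each side, by RefSeq order. Simulated libraries for Atg5 KO against control with 200 changed genes gave 189 calls among them and 5 others. The changed genes were drawn from those with a higher control level, with 1 fixed size of difference and the same spread in both groups. This recovery does not cover genes of low level, genes with uneven spread or the other comparisons. Floors of 3 reads cover counting error only. Alternatives were other offsets (0.1, 1), filters, scaling, a replicate block, the library-name prefix as a term, 1 fit of 12 libraries and leaving out each library. Values of some genes of the lists and neighbours are not reported here. R 4.3.3, limma 3.58.1, Python 3.11.15 and matplotlib 3.10.9 were used.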

Additional observations from a re-analysis of the deposited data

How the results depend on the processing

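No test between KO cells called any of the 6 genes under any of the alternatives. The fitted differences of the 6 genes from control kept their direction in all that could be fitted. Differences between KO did not all keep theirs, such as Mest in Atg7 KO against Fip200 KO (-2.16, but 2.46 with the prefix as a term). For the other named genes, 57 of 376 calls recomputed under alternatives that kept all libraries were lost, and 61 of 261 without 1 library, none with a change of sign. Counts over the lists moved more. The other imprinted genes called in Fip200 KO were 1, against 3 with all 12 libraries in 1 fit. In Atg7 KO they were 5, against 2 with the prefix as a term of a fit of 12 libraries and 5 in that fit without it. The neighbouring genes called in Fip200 KO were 2, against 1 with no filter and 1 with the prefix as a term (3 in 12 libraries without it). In Atg5 KO they were 4, against 7 with an offset of 0.1 and 2 with at least 1 RPKM in 3 libraries, and in Atg7 KO 6, against 3 with that filter and 0 with the prefix as a term (6 in 12 libraries without it). Over fits without 1 library the other imprinted genes called ranged from 0 to 4 in Fip200 KO, 5 to 9 in Atg5 KO and 1 to 7 in Atg7 KO, and the neighbours from 0 to 4, 2 to 7 and 2 to 8. The cause was not tested. All genes called in Fip200 KO were 234, but 93 with a replicate block, 47 with the prefix as a term, 146 with no filter and 608 with 12 libraries in 1 fit. They were 0 without control 2 or 3 (1103 and 913 at an unadjusted p under 0.05 by limma), 89 without control 1, 41 without Fip200 KO 2, 143 without Fip200 KO 1 and 598 without Fip200 KO 3. With the prefix as a term of a fit of 12 libraries 663 were called in Atg5 KO and 38 in Atg7 KO, against 1051 and 1110 in that fit without it and 1331 and 1191 in 6 libraries.

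Replicate numbers are shared between groups, but same-numbered samples did not deviate together (correlations of -0.496 to 0.252). With the replicate block 3 other imprinted genes were called in Atg7 KO and 1 neighbour in Fip200 KO, and the 6 genes tested between KO had 0 calls. Low read numbers limit Igf2, H19, Peg3 and Grb10.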
